A study of Mus musculus with 8 samples.

Results

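Timp1, Timp2, Timp3 and Timp4 encode the tissue inhibitors of metalloproteinases (TIMPs), and they were followed here in mouse RPE/choroid, the retinal pigment epithelium together with the vascular layer beneath it. Every probe set annotated to a single one of these genes was taken, a probe set being the group of short probes that gives 1 value for 1 transcript on an Affymetrix array. This gave the 4 genes, of 18193 with a probe set of their own, and 13 of the 45037 probe sets tested, namely 1 for Timp1, 6 for Timp2, 4 for Timp3 and 2 for Timp4. Probe sets of a gene are lettered in the order of their array identifiers. The samples were RPE/choroids of male C57BL/6 mice, aged 4 months (young, 4 arrays) and 26 months (old, 4 arrays). No treatment or transgene was named for either age. For each array the RNA of 4 RPE/choroids from 2 animals was combined, so the spread between arrays is that between pools of mice.

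TIMPs are small secreted proteins that fill the active site of matrix metalloproteinases (MMPs), the zinc enzymes that cut collagen, fibronectin and other matrix. Timp1 is the member most readily induced in inflammation and injury, Timp2 both inhibits Mmp2 and takes part with Mmp14 in its activation, Timp3 binds to the matrix and also inhibits ADAM proteases, and Timp4 is known mainly from heart, brain and fat. In the eye, TIMP3 is made by the RPE and is held in Bruch's membrane, the sheet of matrix between RPE and choroid. Mutations of the human TIMP3 gene cause Sorsby fundus dystrophy, a macular disease.

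The 4 genes differed in their response to age, and their upstream sequences are shown because members of the family that rose stand beside one that did not pass the test. The 250 bases before each annotated start are given 5′ to 3′ on the strand of the gene, from RefSeq on build GRCm38.p6, for Timp1 at chrX:20869916-20870165 on the plus strand, Timp2 at chr11:118355412-118355661 on the minus strand, Timp3 at chr10:86300162-86300411 on the plus strand and Timp4 at chr6:115252206-115252455 on the minus strand. Capitals mark matches on either strand to an ETS motif, AGGAAG, or to a GC box, GGGCGG, and no marked matches overlap.
Timp1: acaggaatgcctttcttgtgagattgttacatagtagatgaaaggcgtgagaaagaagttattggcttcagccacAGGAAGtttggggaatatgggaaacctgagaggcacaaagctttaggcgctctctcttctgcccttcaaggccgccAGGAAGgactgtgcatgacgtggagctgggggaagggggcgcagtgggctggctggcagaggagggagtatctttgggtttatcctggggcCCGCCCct
Timp2: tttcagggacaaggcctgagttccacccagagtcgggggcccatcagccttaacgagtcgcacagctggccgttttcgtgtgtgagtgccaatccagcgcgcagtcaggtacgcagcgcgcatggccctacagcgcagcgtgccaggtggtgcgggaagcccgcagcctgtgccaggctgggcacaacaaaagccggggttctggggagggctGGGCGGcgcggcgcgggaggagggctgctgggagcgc
Timp3: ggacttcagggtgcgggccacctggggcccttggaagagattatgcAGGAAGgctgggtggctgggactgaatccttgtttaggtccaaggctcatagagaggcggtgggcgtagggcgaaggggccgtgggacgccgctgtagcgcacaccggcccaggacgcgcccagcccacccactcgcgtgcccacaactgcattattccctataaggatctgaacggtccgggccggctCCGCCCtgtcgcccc
Timp4: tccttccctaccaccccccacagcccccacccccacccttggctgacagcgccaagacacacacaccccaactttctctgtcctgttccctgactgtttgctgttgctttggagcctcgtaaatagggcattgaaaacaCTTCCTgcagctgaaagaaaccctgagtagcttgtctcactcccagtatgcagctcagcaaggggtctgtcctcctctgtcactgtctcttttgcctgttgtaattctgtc
Timp1 held 2 ETS motifs, from -175 to -170 and from -99 to -94 counted from the annotated start, and 1 GC box from -8 to -3. Timp2 held 1 GC box from -37 to -32 and no ETS motif. Timp3 held 1 of each, and Timp4 held 1 ETS motif and no GC box. An AP-1 motif (TGANTCA), a STAT motif (TTCNNNGAA) and a TATA box (TATAAA) were searched on both strands and were absent from all 4 windows. Among 32851 annotated upstream windows of this length, 29.5% held the ETS motif, 32.7% the GC box, 6.75% the AP-1 motif, 7.02% the STAT motif and 12.4% the TATA box. The windows of Timp2 and Timp3 were 68% and 65.6% G or C, those of Timp1 and Timp4 54.4% and 53.6%, and the median window 52.4%. These letters describe the windows only.

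The arrays carried the markers of the labelled tissue. Rpe65, the isomerase of the visual cycle, had intensities of 10806 to 12118. None of the 17 RPE markers or 13 endothelial markers was at 0 on any array. This says little, since only 8 to 14 values per array lay under 1. Array medians lay between 129 and 135. Correlations of log2 values were at least 0.9915 between arrays of the same age and at most 0.9885 between arrays of different age. Old replicate 2 stood apart in neutrophil markers, old replicate 4 in inner retinal and photoreceptor markers and young replicate 4 in photoreceptor markers. The Timp probe sets and the ratios were also computed without these arrays. The gene and marker lists were not. Detection calls were not used here, so it was not settled whether a low probe set was above its background.

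Of the 13 probe sets, 8 were higher in old animals and 0 were lower at an adjusted p under 0.05, and 5 did not pass. Across all probe sets tested, 9.22% were higher and 8.75% lower by this rule. At an unadjusted p under 0.05 the counts for the 13 were again 8 and 0, and the unpooled-variance statistic run as an alternative called 7 higher and 0 lower, without Timp4 probe set B. By the stricter thresholds of the study's methods, more than 2-fold with an adjusted p below 0.01, 2 of the 13 were higher, 1 of Timp1 and 1 of Timp4, against 0.764% of all probe sets. The values of the 2 ages did not overlap for 8 of the 13, against 24.3% of all probe sets. The median log2 change was 0.25 for the 13 and -0.02 for all probe sets. Timp1 and Timp4 are among the genes that the study singled out for their change on these same arrays, so their direction here is not independent evidence. The tissue is a mixture of cells, so more cells of a type cannot be told apart from more RNA per cell for any of these values.

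**Figure D1:**
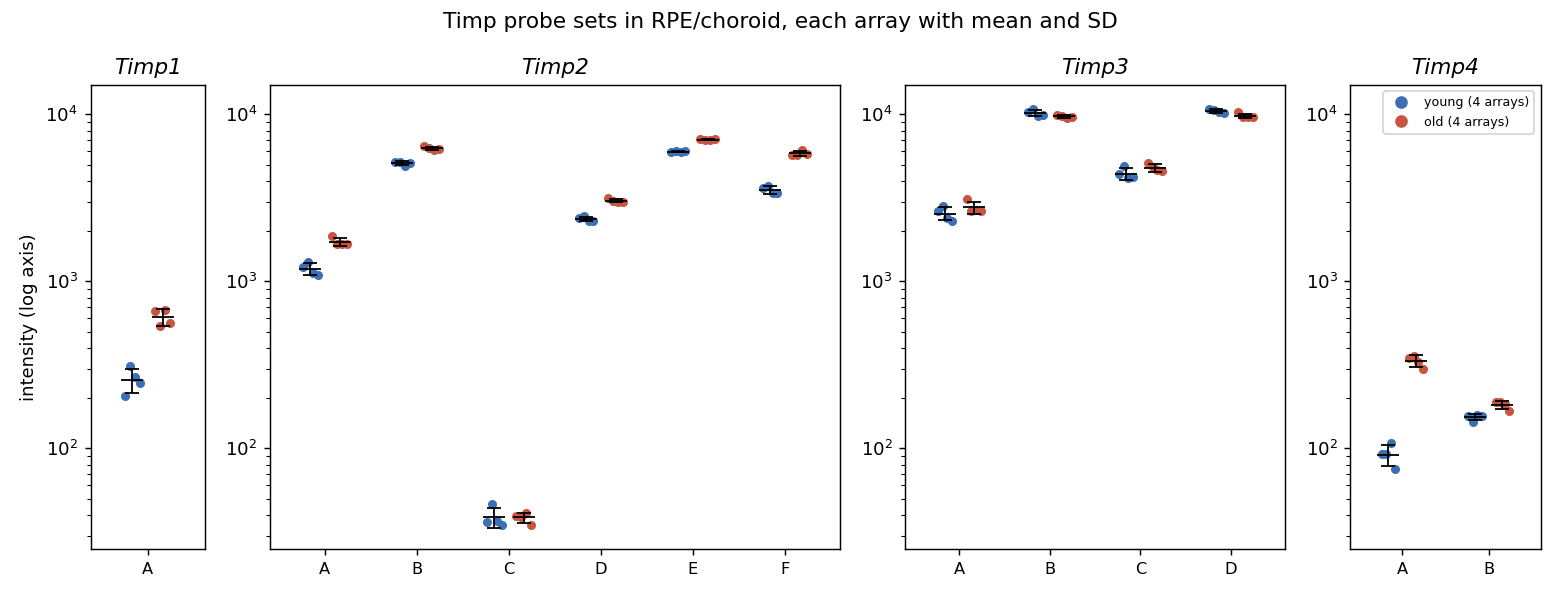
Intensity (log axis) of each of the 13 Timp probe sets on 4 young and 4 old arrays, 1 point per array, with the mean and SD of each age as black bars. Timp1, both Timp4 probe sets and 5 of the 6 Timp2 probe sets have every old array above every young array, and the 4 Timp3 probe sets overlap.

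Timp1, the inducible inhibitor of most secreted MMPs, was measured by 1 probe set. Its intensity was 206, 310, 267 and 246 in young replicates 1 to 4 and 669, 542, 675 and 562 in old replicates 1 to 4. All 4 old arrays lay above all 4 young arrays, with a gap between 310 and 542. The mean was 257 ± 43.5 (SD, n = 4) in young and 612 ± 69.8 (SD, n = 4) in old animals. This was a 2.39-fold rise (95% interval 1.96 to 2.92), or 1.26 on the log2 scale (standard error, s.e., 0.13, limma adjusted p = 0.000305), at rank 219 of the 45037 changes ordered from the largest rise. The relative spread between arrays was 16.9% in young and 11.4% in old animals, the widest of the Timp probe sets at each age.

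Timp4 had the largest change of the family, in 1 of its 2 probe sets. By probe set A the intensity was 92.6, 92.0, 108 and 75.3 in young replicates 1 to 4 and 350, 359, 327 and 299 in old replicates 1 to 4. Every old array lay above the highest young array, which was at 108. The mean was 91.9 ± 13.2 (SD, n = 4) in young and 334 ± 26.7 (SD, n = 4) in old animals, a 3.65-fold change (95% interval 3.09 to 4.32; log2 change 1.87, s.e. 0.11, limma adjusted p = 3.34e-05), at rank 52 of 45037.

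The other Timp4 probe set gave a much smaller change. By probe set B the intensity was 157, 144, 159 and 156 in young and 190, 190, 183 and 168 in old replicates 1 to 4. The ages again did not overlap, but the gap, from 159 to 168, was narrow. The log2 change was 0.25 (s.e. 0.06, limma adjusted p = 0.0241), a fold of 1.19, and this call was lost without young replicate 4 (adjusted p = 0.0515), old replicate 2 (0.0596) or old replicate 3 (0.0614), and with old replicates 2 and 4 both left out (0.06). It was also lost with no shared variance (adjusted p = 0.0501) and with a replicate block (0.061). The log2 changes of the 2 probe sets differed by 1.62 (two-sided exact permutation test, p = 0.0286, the smallest that 4 against 4 arrays allow), a comparison added after the values were seen. Which part of the transcript each probe set reads is not stated in the annotation used.

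Timp2, the inhibitor that pairs with Mmp2 and Mmp14, rose by 5 of its 6 probe sets, by less than Timp1. The largest change was at probe set F, which read 3635, 3733, 3387 and 3373 in young and 5743, 5743, 6144 and 5770 in old replicates 1 to 4. No old array overlapped the young arrays, and old replicate 3 was the highest. The fold was 1.66 (95% interval 1.52 to 1.81; log2 change 0.73, s.e. 0.06, limma adjusted p = 7.96e-05).

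Timp2 is represented among genes by probe set E, the one with the greatest average log2 level. This probe set read 5962, 6021, 5915 and 6028 in young and 7111, 7017, 7028 and 7072 in old replicates 1 to 4, with a relative spread of 0.89% in young and 0.609% in old arrays. This was the tightest of the 13 probe sets at each age. Its fold was 1.18 (95% interval 1.10 to 1.27; log2 change 0.24, s.e. 0.05, limma adjusted p = 0.00772), and the call was lost with old replicates 2 and 4 left out together (log2 change 0.24, adjusted p = 0.0612).

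The remaining Timp2 probe sets had changes between these or did not pass. The log2 change was 0.54 for probe set A (1187 ± 101 in young, 1726 ± 103 in old; SD, n = 4), 0.36 for probe set D (2369 ± 76.1 and 3047 ± 78.5) and 0.30 for probe set B (5106 ± 144 and 6271 ± 145), with adjusted p of 0.0016, 0.00172 and 0.0042 from limma. Probe set C ranged over 35 to 46.5 in young arrays and over 35 to 41.2 in old ones, with a log2 change of 0.01 (95% interval -0.21 to 0.22). It lay well below the array medians of 129 to 135, so whether it reads Timp2 RNA above background was not settled. Counts of probe set combinations below include it. The log2 change of probe set F exceeded that of probe set E by 0.49 (two-sided exact permutation test, p = 0.0286, the smallest possible, also added after the values were seen), so the size of the rise of Timp2 depended on the probe set.

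Timp3, the inhibitor of Bruch's membrane, did not pass the test by any of its 4 probe sets. Its representative, probe set D, read 10812, 10675, 10325 and 10154 in young and 10258, 9644, 9614 and 9603 in old replicates 1 to 4. Only old replicate 1 lay within the young range. The fold was 0.932 (95% interval 0.861 to 1.01; log2 change -0.10, s.e. 0.05, limma adjusted p = 0.2). With a variance trend and robust estimation this probe set passed narrowly (log2 change -0.10, adjusted p = 0.0491). Probe set B ranged over 9799 to 10778 in young arrays and over 9529 to 9894 in old ones, with a log2 change of -0.07 (adjusted p = 0.397).

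The remaining Timp3 probe sets had positive log2 changes. By probe set A the arrays read 2311 to 2821 in young and 2627 to 3120 in old animals, a log2 change of 0.12 (adjusted p = 0.342 from limma). By probe set C they read 4157 to 4939 and 4584 to 5114, a log2 change of 0.12 (adjusted p = 0.281). All 4 old arrays were below the young mean for probe set D and probe set B and above it for probe set A and probe set C. Over the 4 probe sets the 95% intervals ran from a fold of 0.861 to one of 1.24, so a change as large as that of Timp1 lay outside every interval. The mean over the 4 probe sets changed by 0.02 on the log2 scale (adjusted p = 0.876), so no direction is given for Timp3.

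**Figure D2:**
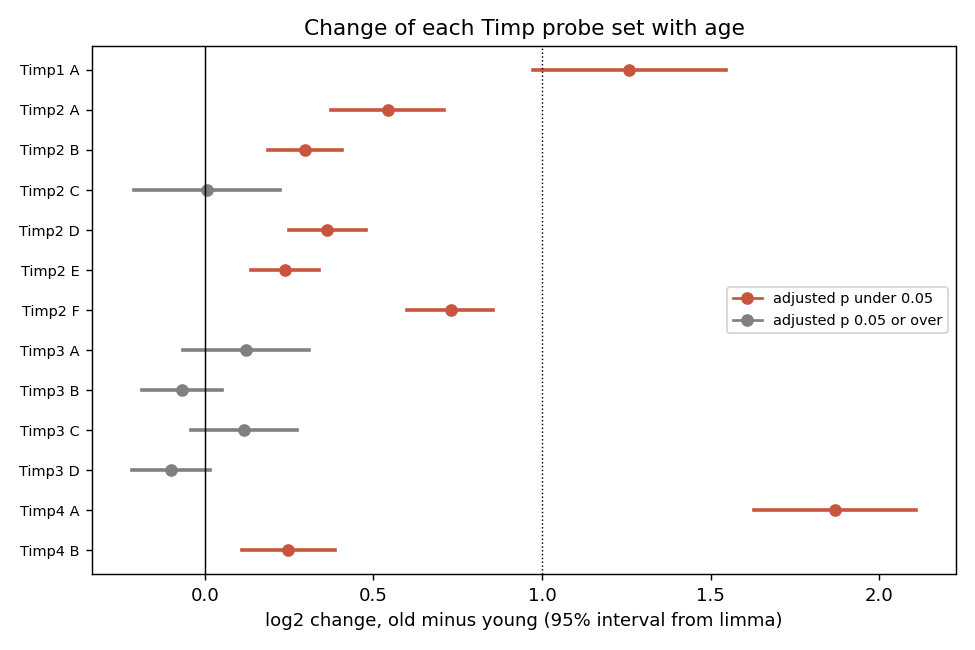
Log2 change from young to old (horizontal axis, with the 95% interval from limma) of the 13 Timp probe sets, 4 arrays per age, coloured by whether the adjusted p was under 0.05. The dotted line marks a fold of 2, which Timp1 and Timp4 probe set A exceed, and the 4 Timp3 intervals include 0.

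Changes of different genes were compared within arrays, by the log2 ratio of their representative probe sets. Such a ratio shows unequal change and says nothing on which gene is more abundant. The change of Timp1 exceeded that of Timp2 by 1.02 and that of Timp3 by 1.36 on the log2 scale, and the change of Timp2 exceeded that of Timp3 by 0.34. For these 3 pairs the ratios of old and young arrays did not overlap (two-sided exact permutation tests, p = 0.0286 each, the smallest possible; adjusted p = 0.0315 over the 11 ratios tested). For Timp1 against Timp2 and against Timp3, every choice of probe sets gave the same order with a p under 0.05, in 6 of 6 and 4 of 4 combinations. For Timp2 against Timp3, 17 of 24 combinations did so and 7 did not pass. All counts of combinations, here and below, were added after the values were seen. The combinations share the same arrays and are not separate tests of the order.

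The place of Timp4 in this order depended on its probe set. Probe set A stood for Timp4 only through its old arrays. Its mean was below that of probe set B in young animals (91.9 against 154) and above it in old ones (334 against 183). The choice was thus not independent of the rise. By probe set A the change of Timp4 exceeded that of Timp1 by 0.61, that of Timp2 by 1.63 and that of Timp3 by 1.97 on the log2 scale (exact permutation tests, p = 0.0286 and adjusted p = 0.0315 each). The difference from Timp1 missed the threshold without any 1 of the 4 old arrays (exact permutation test, p = 0.0571 each). This is the next possible p above the smallest that 3 against 4 arrays allow, 0.0286. By probe set B the change of Timp1 exceeded that of Timp4 by 1.01 (exact permutation test, p = 0.0286), and the change of Timp2 minus that of Timp4 was -0.01 (p = 0.771). The change of Timp3 by its representative was below that of Timp4 by either Timp4 probe set, with a difference of -0.35 by probe set B (exact permutation test, p = 0.0286). Of the 8 combinations of Timp3 and Timp4 probe sets, 6 gave this order with a p under 0.05 and 2 did not pass, with differences from -1.97 to -0.13.

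The proteases that the TIMPs inhibit rose in part. Of 16 measured MMP genes, 8 were higher and 0 lower in old animals, where 11.8% of all 18193 genes were higher and 9.56% lower by their representative probe sets. At an unadjusted p under 0.05 the counts were 9 and 0. The median log2 change of the 16 was 0.56, and that of all genes -0.02. Mmp3 (stromelysin), which cuts many matrix proteins and activates other MMPs, read 224, 423, 313 and 296 in young and 2996, 3290, 3995 and 3432 in old replicates 1 to 4, an 11.1-fold rise (adjusted p = 2.59e-05 from limma). Mmp13, a collagenase, was 8.13-fold higher, Mmp12, the elastase of macrophages, 2.09-fold and Mmp19 2.02-fold. Mmp3, Mmp12, Mmp13 and Mmp19 are among the genes the study singled out on these arrays.

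Mmp2 and Mmp14, the gelatinase and the membrane protease that form a complex with Timp2, were higher too. Mmp2 read 984, 923, 759 and 922 in young and 1629, 1903, 1892 and 1711 in old replicates 1 to 4, a log2 change of 0.995 (s.e. 0.09, limma adjusted p = 0.000171). Mmp14 read 1383, 1416, 1348 and 1416 in young and 1905, 2038, 2034 and 1974 in old animals, a log2 change of 0.52 (adjusted p = 0.000245). Neither gene overlapped between the ages by these probe sets. The ratio of Timp2 to Mmp2 fell by 0.76 on the log2 scale in old animals (exact permutation test, p = 0.0286, adjusted p = 0.0315), and it fell in all 12 combinations of probe sets of the 2 genes.

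The ratio of Timp2 to Mmp14 had no settled direction. It fell by 0.28 on the log2 scale by the representatives (exact permutation test, p = 0.0286, adjusted p = 0.0315) and rose by 0.21 with Timp2 probe set F (p = 0.0286). Of 18 combinations of probe sets, 5 gave a fall and 5 a rise with a p under 0.05, and 8 did not pass. 1 of the 3 Mmp14 probe sets had a log2 change of -0.06 (adjusted p = 0.651 from limma).

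Timp1 and Mmp9, whose proenzyme is known to bind Timp1, moved apart in 3 of 4 old arrays. Mmp9 read 103, 105, 108 and 106 in young and 98.7, 268, 103 and 106 in old replicates 1 to 4. Only old replicate 2 stood above the young arrays, and the log2 change of 0.31 did not pass (adjusted p = 0.485 from limma). The change of Timp1 exceeded that of Mmp9 by 0.95 on the log2 scale (exact permutation test, p = 0.114, adjusted p = 0.114), and by 1.35 without old replicate 2 (p = 0.0286). In that array the neutrophil markers had a summed intensity of 18511, where all other arrays were lower, and their part in the Mmp9 value was not tested.

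Adam17, the sheddase that Timp3 inhibits, had a log2 change of 0.15 (adjusted p = 0.0853 from limma). The ratio of Timp3 to Adam17 fell by 0.25 on the log2 scale by the representatives (exact permutation test, p = 0.0286, adjusted p = 0.0315). It fell with a p under 0.05 in 4 of 12 combinations of probe sets, and 8 did not pass. The ratio of Timp4 to Mmp2 rose by 0.88 by Timp4 probe set A and fell by 0.75 by probe set B (exact permutation tests, p = 0.0286 for each). The rise missed the threshold without any 1 of the 4 old arrays (exact permutation test, p = 0.0571 each, the next possible value above the smallest).

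**Figure D3:**
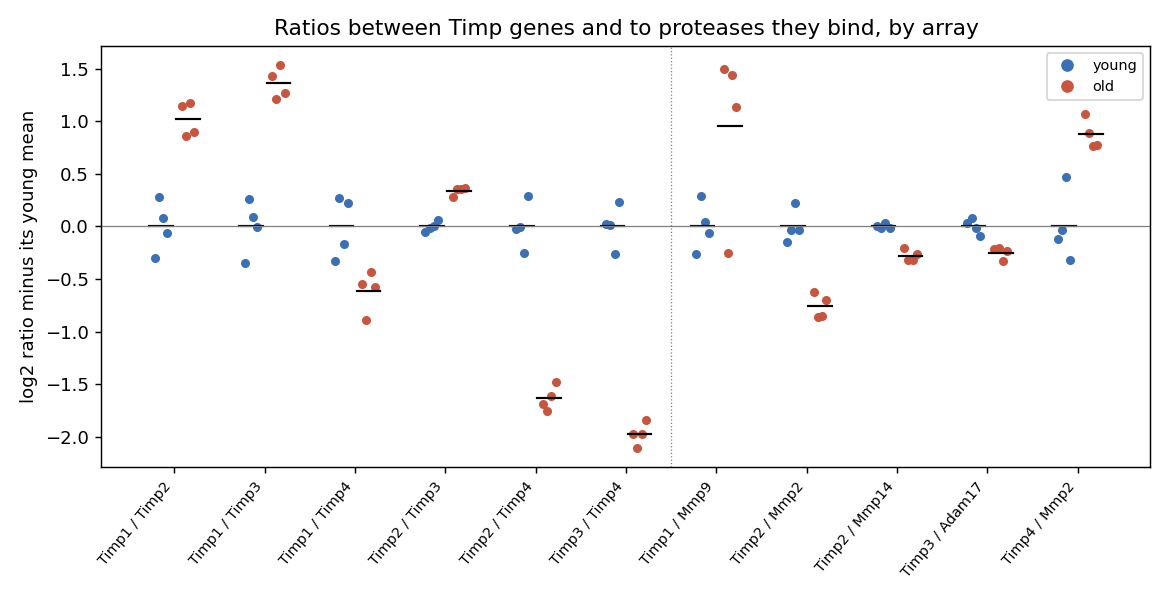
Log2 ratio of the representative probe sets of 2 genes on each array, minus the mean of the 4 young arrays (vertical axis), for the 6 pairs of Timp genes (left of the dotted line) and 5 pairs of an inhibitor and a protease it binds, with the mean of each age as a line. Old and young arrays separate in 10 of the 11 pairs, and in Timp1 against Mmp9 old replicate 2 lies among the young arrays.

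Of 15 measured ADAM and ADAMTS genes, 4 were higher and 1 lower, beside 11.8% and 9.56% of all genes, with a median log2 change of 0.09. Adam8, a protease of myeloid cells that TIMPs do not inhibit, read 85.2 to 113 in young arrays and 330 to 839 in old ones, a 5.70-fold rise (adjusted p = 0.000284 from limma). Adam19 was 1.36-fold and Adam33 1.18-fold higher, and Adam12 fell to 0.806 of its young level.

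A list of other protease inhibitors and related proteins was not limited to inhibitors of matrix proteases. Of its 12 measured genes, 2 were higher and 2 lower, beside 11.8% and 9.56% of all genes. The median log2 change was -0.02. Serping1, the C1 inhibitor, rose 1.53-fold (2638 to 2842 in young arrays and 4118 to 4297 in old ones) and Serpinf1, the anti-angiogenic factor PEDF made by the RPE, 1.48-fold. Spock1, a matrix proteoglycan, fell to 0.702 and Tfpi2, a Kunitz-type inhibitor, to 0.751 of the young level. Reck, the membrane-anchored MMP inhibitor, had a log2 change of 0.05 (adjusted p = 0.707 from limma), and was named after its values were seen.

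Among receptors and partners that bind TIMPs, 2 of 7 were higher and 2 lower, beside 11.8% and 9.56% of all genes. Cd44, a hyaluronan receptor that can hold Timp3 and MMPs at the cell surface, read 1084 to 1401 in young arrays and 2146 to 2499 in old ones, a 1.82-fold rise. Lrp1, the endocytic receptor that clears TIMPs and MMPs, rose 1.45-fold (adjusted p = 0.000209 from limma). Kdr, the VEGF receptor that Timp3 can block, fell to 0.680 and Itga3, an integrin chain linked to Timp2, to 0.830 of the young level.

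A list around the induction of Timp1 held cytokines, receptors, transcription factors and the signalling regulator Socs3, and was not limited to inducers. Of its 24 measured genes, 4 were higher and 2 lower, with a median log2 change of 0.07. These adjusted counts are near the shares of all genes, 11.8% higher and 9.56% lower, and are no result about the list. Before adjustment (limma p under 0.05), 10 of the 24 were higher and 3 lower, and the share of all genes by that rule was not counted. Cebpb, a transcription factor of the acute phase, rose 1.85-fold, Tgfb1, the matrix-inducing cytokine, 1.75-fold and Stat3, the factor downstream of the IL-6 family, 1.49-fold (adjusted p = 0.0176, 0.00136 and 0.00212 from limma). Lifr, the receptor of leukemia inhibitory factor, fell to 0.796 of its young level.

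Matrix genes of Bruch's membrane, the substrate of these enzymes, had 7 of 35 members higher and 7 lower, beside 11.8% and 9.56% of all genes, and a median log2 change of -0.03. Fn1, fibronectin, read 388 to 492 in young arrays and 1474 to 1931 in old ones, a 3.79-fold rise (adjusted p = 2.85e-05 from limma). Ltbp2, a protein of elastic microfibrils, rose 2.46-fold and Col6a3, a chain of collagen VI, 1.96-fold. Nid2, a basement membrane linker, fell to 0.696 of its young level.

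**Figure D4:**
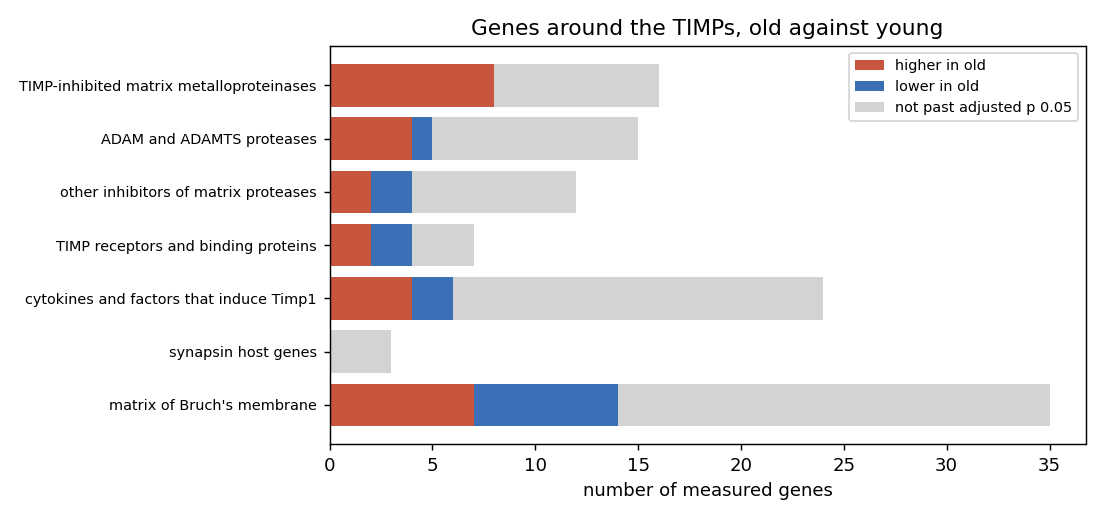
Number of measured genes (horizontal axis) of each list around the TIMPs that were higher, lower, or called neither way at the 0.05 level, comparing 4 old with 4 young arrays by representative probe set. The MMP list has 8 of 16 genes higher and 0 lower, and the matrix list has 7 of 35 in each direction.

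By the RefSeq annotation, Timp1 lies within Syn1, Timp3 within Syn3 and Timp4 within Syn2, the genes of the synapsins, which are proteins of synaptic vesicles. Timp1 and Syn1, and Timp4 and Syn2, run on opposite strands. None of the 3 synapsin genes passed by its representative probe set. Their log2 changes were -0.32 for Syn1 (adjusted p = 0.0603 from limma), -0.21 for Syn2 (0.148) and -0.04 for Syn3 (0.847), and at an unadjusted p under 0.05 2 of them were lower. Over all 10 probe sets of these genes, 2 were higher and 1 lower, with log2 changes from -0.32 to 0.34. No host probe set had a change as large as those of the Timp1 and Timp4 probe sets past the study's thresholds. Syn1 read 149 to 170 in young arrays, 116 to 125 in old replicates 1 to 3 and 162 in old replicate 4.

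Markers of several cell types moved with age beside the Timp genes. Of 14 macrophage markers 10 were higher and 0 lower, beside 11.8% and 9.56% of all genes. The summed intensity of these markers was 35068 to 39681 in young arrays and 55710 to 58998 in old ones. Of 8 mast cell markers 5 were higher and 1, Kit, lower (summed intensity 917 to 978 and 1075 to 1427). Of 10 neutrophil markers 2 were higher and 1 lower (1540 to 1848 and 1903 to 18511), counts near the shares of all genes. Before adjustment (limma p under 0.05), 4 neutrophil markers were higher and 1 lower. Cd68, a lysosomal protein of macrophages, rose 2.78-fold and Itgam, an integrin chain of myeloid cells, 2.88-fold, while S100a8, a neutrophil alarmin, read 7828 in old replicate 2 against 346 to 888 in old replicates 1, 3 and 4. Without old replicate 2, 7 of the 13 Timp probe sets were higher. No marker of these lists was at 0 on any array, which held for nearly every probe set. Their part in the rise of Timp1, Timp2 and Timp4 was not tested.

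RPE and endothelial markers moved the other way, where 11.8% of all genes were higher and 9.56% lower. Of 17 RPE markers, 0 were higher and 12 lower, with a median log2 change of -0.24 and a summed intensity of 153060 to 157214 in young arrays and 129462 to 141775 in old ones. Of 13 endothelial markers, 0 were higher and 9 lower, with a median log2 change of -0.31 (17248 to 20840 and 13242 to 15909). Rrh and Kcnj13, an opsin and a potassium channel of the RPE, fell to 0.682 and 0.746 of their young level, and Cldn5, a tight junction protein of endothelium, to 0.507. The 4 Timp3 probe sets had log2 changes between -0.10 and 0.12 beside these medians. At an unadjusted p under 0.05, limma had 0 RPE and 0 endothelial markers higher and 0 macrophage markers lower. Of 12 fibroblast markers 1, Pdgfra, was higher and 0 were lower (32476 to 35328 and 33706 to 39247). At an unadjusted p under 0.05 from limma, 2 fibroblast markers were higher and 2 lower. Of 10 pericyte and smooth muscle markers 1, Pdgfrb, was higher and 0 lower. These higher counts are near the share of all genes and are no result about the 2 lists. The part of these cell types in the Timp values was not tested.

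**Figure D5:**
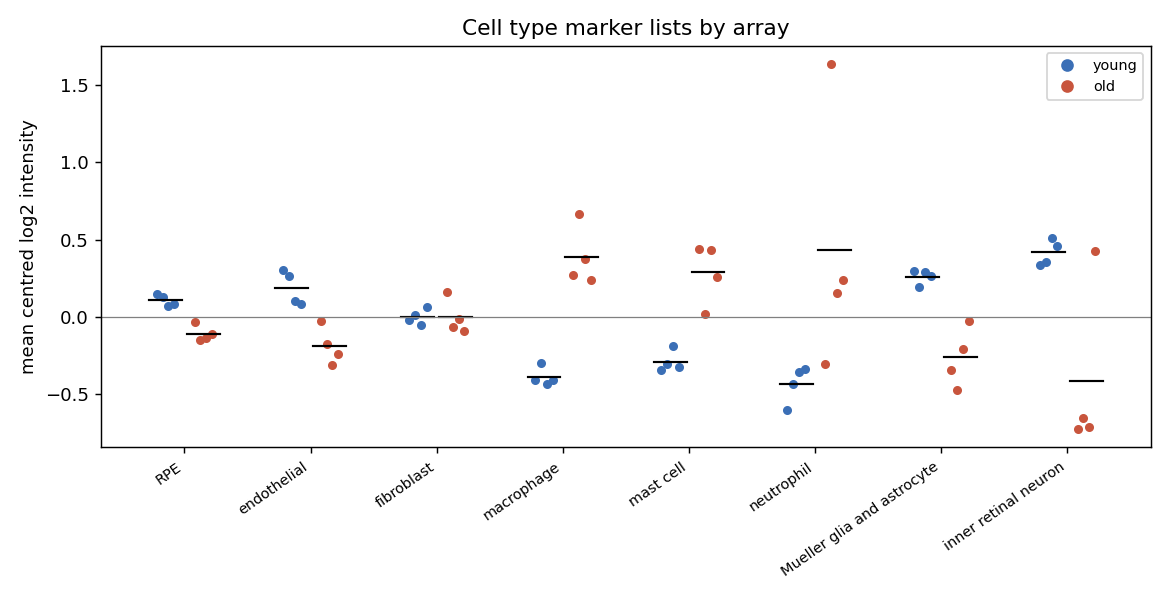
Mean log2 intensity of each cell type's marker genes on each array, after the mean of each gene across the 8 arrays was taken off (vertical axis), with the mean of each age as a line. Macrophage and mast cell lists lie higher and RPE and endothelial lists lower on all 4 old arrays, while old replicate 2 is at 1.63 in the neutrophil list and old replicate 4 is at 0.42 in the inner retinal list.

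Markers of the neural retina and of nearby tissue were counted as well, where 11.8% of all genes were higher and 9.56% lower. Of 12 Mueller glia and astrocyte markers 1 was higher and 4 lower, and at an unadjusted p under 0.05 from limma 2 were higher and 7 lower. Fabp7, a fatty acid carrier of glia, fell to 0.326 of its young level, Slc1a3, a glutamate transporter, to 0.377, Sox2, a transcription factor, to 0.423 and Gfap, an intermediate filament protein, to 0.508. The summed intensity of this list, 43060 to 44069 in young arrays and 41256 to 42899 in old ones, was mostly that of Clu and Glul, neither of which passed. Of 13 inner retinal markers 2 were higher and 3 lower, with a median log2 change of -0.67. At an unadjusted p under 0.05 from limma, 2 were higher and 9 lower. Their summed intensity was 10918 to 11891 in young arrays, 6713 to 7471 in old replicates 1 to 3 and 10938 in old replicate 4. Cartpt, a neuropeptide, fell to 0.16 of its young level, last of the 45037 changes ordered from the largest rise. Of 12 photoreceptor and 12 skeletal muscle markers none passed in either direction by limma, and at an unadjusted p under 0.05 the photoreceptor list had 0 higher and 1 lower and the muscle list 0 of each. Summed photoreceptor intensity was 20793 to 23712 in young replicates 1 to 3 and 11714 in young replicate 4, and 9301 to 13772 in old replicates 1 to 3 and 23432 in old replicate 4. The part of neural retina in the Timp values was not tested. Fabp4, a fatty acid carrier of adipocytes, macrophages and capillaries, rose 3.68-fold and was the only one of 7 adipocyte markers past the threshold. Of 9 cartilage and sclera markers 2 were higher, among them Comp at 2.65-fold, and 1 lower, and of 5 Schwann cell and myelin markers 2 were lower.

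The genes whose values across the 8 arrays were most like those of each member were taken from 9096 genes above the median level, by Pearson's r. The arrays fall into the 2 ages, so r can carry the age change, and it is given as a description. Beside it stands the r left after each age's mean was removed, which stayed high for Timp1 and Timp3. The genes were picked for the highest r on these same arrays, so the r within ages is no separate check of the likeness. For Timp1 these were Mamdc2 (0.991, and 0.882 within ages), Axl, a receptor kinase for dying cells (0.991 and 0.891), and Ctdnep1 (0.987 and 0.853). For Timp2 they were C1ra (0.995 and 0.531), Setd5 (0.994 and 0.064) and C1s1 (0.994 and 0.570), and C1ra and C1s1 encode the proteases of the first complement component. For Timp3 they were Sulf1, a heparan sulfatase (0.985 and 0.958), Nprl3 (0.983 and 0.963) and Sox7, an endothelial transcription factor (0.982 and 0.966). The log2 changes of Sulf1, Nprl3 and Sox7 were -0.3, -0.31 and -0.61 (adjusted p = 0.0397, 0.0231 and 0.00991 from limma). For Timp4, by probe set A, they were Npc1, the cholesterol transporter of lysosomes (0.993 and 0.684), Tram2 (0.993 and 0.700) and Cd200r4 (0.992 and 0.629).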

How the data were processed

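Each array is 1 sample of RPE/choroid RNA on an Affymetrix Mouse 430 2.0 array. The table deposited by the authors holds 1 linear intensity per probe set. The authors normalized it by a route the table does not name: the methods give RMA, invariant set normalization in Dchip2006 and BRB-ArrayTools. The values are on a linear scale and were not quantile-normalized.

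Of 45101 probe sets, 64 controls were left out. Intensities under 1 (8 to 14 per array) were set to 1 before log2. All 45037 others were fitted with limma 3.58.1 in R 4.3.3 (lmFit and eBayes, old against young, Benjamini-Hochberg over all of them), and called at an adjusted p under 0.05. GEO's platform annotation named a single gene for 34945 probe sets, several for 932 and none for 9160. Where a gene had several probe sets, the one of greatest average log2 level over all 8 arrays stood for it. A change with age could affect this choice, as it did for Timp4. Fold changes from limma are on the log2 scale. Steps were tested on simulated data.

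Ratios were tested by two-sided exact permutation over the 8 arrays. Array number limits precision. The members, lists and naming rule (all Timp probe sets, the proteases in the ratios, the synapsins, and up to 4 genes per list with the largest called change) were chosen with earlier results of these data known. Lists were written from textbook knowledge, and list genes with no probe set of their own in the annotation were not analysed here. Alternatives were other scalings, filters, variance models, a replicate block, leaving out arrays and other probe sets. RMA from image data and the removal of probe sets called Absent were not repeated.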

Additional observations from a re-analysis of the deposited data

Results flagged for a closer look

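In 40 groups of 4 arrays (20 probe sets at each age), 5 held an array far from the other 3 for its group's range, where chance alone gives about 1 in 20. Old replicate 1 was high for Timp2 probe set A, at 1879 against 1666 to 1685 (gap 0.904 of the range), for Timp3 probe set A, at 3120 against 2627 to 2673 (0.898), and for Timp3 probe set D, at 10258 against 9603 to 9644 (0.936). Old replicate 3 was high for Timp2 probe set F, at 6144 against 5743 to 5770 (0.930). Old replicate 2 was high for Mmp9, at 268 against 98.7 to 106 (0.925). Without old replicate 1 the log2 change of Timp3 probe set D was -0.12 and that of Timp2 probe set A 0.50.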

How the results depend on the processing

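Of 398 recomputed values, 367 were classed as unchanged, among them those of Timp1 and Timp4 probe set A under every alternative run. For a change this meant the same direction and side of the threshold. For a count of probe sets it meant a similar count, so 8 that became 6 was classed as unchanged. Timp1 has 1 probe set, so other choices of probe set could not alter its value. The floor at 32, the filter on level, the other variance models and the replicate block left the log2 changes of Timp1 and Timp4 probe set A as they were. Under these only the p could move. On young arrays Timp4 probe set A read below the array medians of 129 to 135, so it met the filter on level through its old arrays. Leaving out old replicates 2 and 4 together lost Timp2 probe set E (log2 change 0.24, adjusted p = 0.0612 from limma) and Timp4 probe set B (adjusted p = 0.06), leaving 6 probe sets higher. A variance trend with robust estimation called Timp3 probe set D lower (-0.10, adjusted p = 0.0491), so the count of lower probe sets became 1, and the study's thresholds left 2 higher. By the probe set of lowest mean, Timp2 changed by 0.005 (probe set C, well below the array medians, limma adjusted p = 0.976) and Timp3 by 0.12. By the mean of all probe sets Timp3 changed by 0.017. With Timp4 probe set B the change of Timp1 minus that of Timp4 was 1.01, Timp2 minus Timp4 -0.01, and Timp4 minus Mmp2 -0.75. With Timp2 probe set F, Timp2 minus Mmp14 was 0.21. These 4 were added after the values were seen.

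With 1 array left out, Timp2 probe set C ranged from -0.039 to 0.098, Timp1 minus Timp4 from -0.72 to -0.52, Timp4 minus Mmp2 from 0.77 to 1.03 and Timp1 minus Mmp9 from 0.77 to 1.35. Timp1 minus Timp4 and Timp4 minus Mmp2 missed the threshold without each old array (exact permutation p = 0.0571). With 3 against 4 arrays this is the next possible p above the smallest, 0.0286. Without an old array the differences stayed between -0.67 and -0.52 for Timp1 minus Timp4 and between 0.81 and 0.91 for Timp4 minus Mmp2. The causes of the ranges were not tested.

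Replicate numbers do not pair the arrays: the deviations of same-numbered arrays correlated at 0.0971, 0.019, 0.0218 and 0.0427, and the number matched best for replicate 1 alone. A replicate block left 7 of the 13 probe sets higher and lost Timp4 probe set B (log2 change 0.25, adjusted p = 0.061). A paired sign-flip test of the ratios was not run, since its smallest p is 0.125.

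Over all probe sets, median centring gave 4819 higher and 3023 lower against 4154 and 3939 as reported, the statistic with no shared variance 2331 and 1492, and leaving out old replicates 2 and 4 together 2004 and 1614. Array number, pooling of animals and the lack of detection calls limit the precision.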
